A study of Mus musculus with 16 samples.

Results

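The nuclear-encoded subunits of the respiratory chain were followed as 1 gene family in sorted mouse brain cells after experimental stroke. Members were chosen by gene symbol alone: the Nduf subunits of complex I, Sdha to Sdhd of complex II, the Uqcr genes of complex III, Cox4 to Cox8 of complex IV and the Atp5 genes of complex V. The rule held for 82 of 13982 genes, and 81 of them reached 1 FPKM in at least 4 of 16 libraries. FPKM, a unit inferred here, is a read abundance corrected for how long the transcript is and how many fragments a library holds. These 81 stand among 10846 genes that passed the same filter. They were 38 genes of complex I, 4 of complex II, 8 of complex III, 14 of complex IV and 17 of complex V.

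The respiratory chain sits in the inner mitochondrial membrane. Complexes I and II feed electrons from NADH and succinate into ubiquinone, complex III passes them to cytochrome c, and complex IV reduces oxygen with them. The proton gradient built on the way drives ATP synthesis by complex V. In macrophages and microglia, activation is known to be accompanied by shifts between glycolysis and mitochondrial respiration.

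The 16 libraries, 4 in each of 4 groups, were made from amplified cDNA of cells that the labels call microglia. The cells came from C57BL/6 mice and had been isolated from infarct cortex by flow cytometry after staining for CD45 and CD11b. MCAO+AS-exos and MCAO+Ctrl-exos mice had their middle cerebral artery occluded and received 150 µg of plasma exosomes by tail vein at intervals of 3 days, beginning on the day of occlusion. MCAO mice had the occlusion alone, and Sham mice, labelled untreated, had none. The exosome donors were Apoe knockout mice, fed either a western diet, which was given for 12 weeks to establish atherosclerosis, or normal chow. Which diet stands behind which exosome code is not stated in the labels, and the age of the mice and the time of sorting are not given in the sources used here. Nothing in the labels says that each library is a separate mouse, so p-values measure the spread between these libraries, which may be partly technical.

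The labelled cell type was checked against its markers. The 10 genes listed for resting microglia, P2ry12 and Tmem119 among them, summed to 950.1 to 1780 FPKM in MCAO libraries and 20364 to 22515 FPKM in Sham libraries, and all 10 fell (limma, adjusted p below 0.05). With exosomes they summed to 1109 to 1728 FPKM in MCAO+AS-exos and 1151 to 1250.3 FPKM in MCAO+Ctrl-exos. Monocyte markers summed to 9390.1 to 13441 FPKM in MCAO and 217 to 597 FPKM in Sham, and all 10 rose. Of the border macrophage markers 6 of 7 rose, with sums of 1808 to 4449 FPKM in MCAO and 2.84 to 57.8 FPKM in Sham. Of the neutrophil markers 5 of 7 rose, with 1632 to 9702 and 76.7 to 144 FPKM in those groups. F13a1 is in both the monocyte and the border macrophage list, so it counts in both. Of all tested genes 24.5% rose and 14.8% fell. None of the 10 microglial markers was at 0 in all libraries of a group. The sorted cells of the 2 groups thus differed in their markers, and the part of this in the MCAO against Sham results below was not tested. More subunit RNA per cell and more cells of a type rich in it cannot be told apart in bulk libraries.

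Summed over the 81 members, respiratory subunits took 4.73 ± 0.870% of all FPKM in MCAO+AS-exos, 6.40 ± 0.786% in MCAO+Ctrl-exos, 5.37 ± 0.323% in MCAO and 3.05 ± 0.132% in Sham (mean ± SD, n = 4 each). The Sham libraries, at 2.86 to 3.16%, lay below every other library. In MCAO+AS-exos, replicate 4 stood at 5.99% and replicates 1 to 3 at 4.03 to 4.57%, and in MCAO+Ctrl-exos replicate 1 stood at 5.39% and the other replicates at 6.16 to 7.11%. Sequencing depth is unknown, since the files hold no counts.

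**Figure D1:**
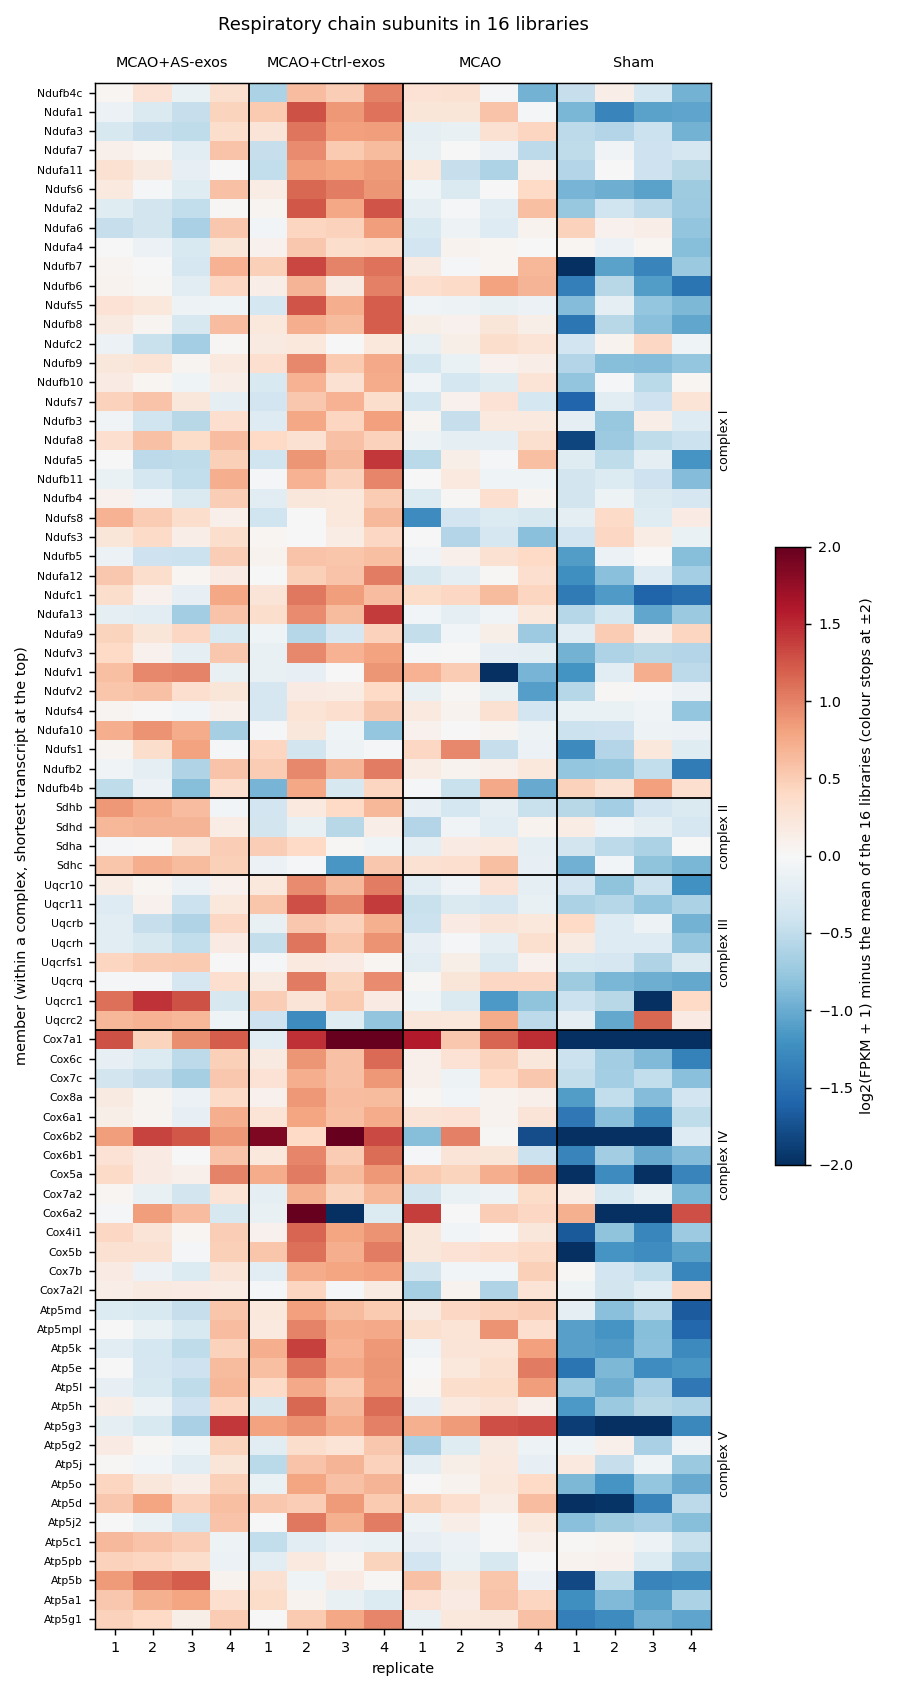
Level of 80 of the 81 subunit genes (vertical axis, grouped by complex with the shortest transcript at the top) in the 16 libraries (horizontal axis, replicates 1 to 4 of MCAO+AS-exos, MCAO+Ctrl-exos, MCAO and Sham). Colour is log2(FPKM + 1) minus the mean of the gene over the 16 libraries. Most genes of complexes IV and V are blue in Sham, and MCAO+AS-exos replicate 4 differs in pattern from replicates 1 to 3.

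Members differed widely in level. Cox6b1, a subunit of complex IV on the side of the intermembrane space, had the highest mean over the 16 libraries at 1999 FPKM. It was followed by the ATP synthase genes Atp5l, at 1876 FPKM, and Atp5e, at 1629 FPKM. At the low end were Cox6a2, at 6.30 FPKM, and Cox6b2, at 10.2 FPKM, the paralogs of complex IV subunits known from heart and skeletal muscle and from testis. Cox4i2, the paralog of Cox4i1 known from lung, was the member that failed the filter: it was listed at 0 in 11 of 16 libraries and reached 6.75 FPKM in MCAO replicate 3.

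The genes followed a common course across libraries. As a description over 16 libraries that share groups and scaling, the Pearson correlation of a member with the mean of the other 80 had a median of 0.77, exceeded 0.8 for 37 members and was below 0 for 3. The closest were Atp5o (r = 0.96), of the ATP synthase stalk, Ndufb8 (0.96), an accessory subunit of complex I, and Cox4i1 (0.96). The 3 negative ones were Uqcrc2 (-0.29), a core protein of complex III, Ndufa9 (-0.29) and Ndufb4b (-0.19). Ndufb4b and Ndufb4c are near-copies of Ndufb4, so their values are uncertain.

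The first question is what occlusion alone changed, with MCAO set against Sham. Respiratory subunit genes were higher after MCAO, most of all those of complex V and complex IV. Of the 81 members, 40 rose and 0 fell, and 41 did not pass (limma, Benjamini-Hochberg adjusted p below 0.05; 43 members had an unadjusted p below 0.05, 42 higher and 1 lower, where 29.7% of all genes were higher and 18.1% lower). Of all 10846 genes, 24.5% rose and 14.8% fell. The median log2 fold change was 0.66 over the members and 0.25 over all genes. All values are differences in log2(FPKM + 1), which understate the change of low genes.

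By complex, 13 of 17 genes of complex V rose (median 1.32), 10 of 14 of complex IV (median 1.16), 14 of 38 of complex I (median 0.53), 2 of 8 of complex III (median 0.29) and 1 of 4 of complex II (median 0.28). Values of all 4 MCAO libraries lay above all 4 Sham libraries for 42 members and below them for 1, where 21.8% and 12.0% of all genes did so. Quantile normalization, which took the median of all genes to -0.03, left the members 0.38 above all genes in median, against 0.41 without it. It left 32 members up and called Ndufs3 and Ndufs8, core subunits of complex I, down.

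**Figure D2:**
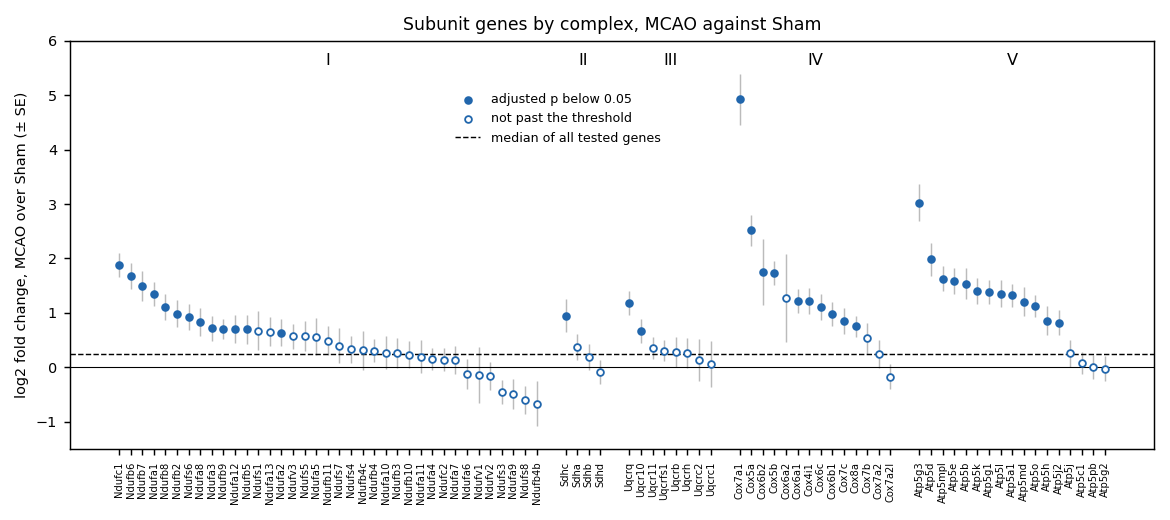
Log2 fold change of MCAO over Sham (vertical axis, points with SE) of 80 of the 81 members, ordered by size within complexes I to V (horizontal axis). Filled points passed an adjusted p of 0.05, and the dashed line is the median of all tested genes, 0.25. The 3 largest values are those of Cox7a1, Atp5g3 and Cox5a, and none of the 11 members below 0 passed.

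Within complex V, the largest fold change was that of Atp5g3, a gene for subunit c. Subunit c forms the rotor ring in the membrane and is encoded by 3 genes, Atp5g1, Atp5g2 and Atp5g3, whose mature proteins are the same. Atp5g3 had 614, 676, 917 and 937 FPKM in MCAO libraries, against 100.61, 79.1, 64.1 and 152 FPKM in Sham libraries (log2 fold change 3.03 ± 0.34 SE, limma adjusted p = 8.32e-07). Atp5g1 averaged 436 ± 90.8 FPKM in MCAO and 165 ± 21.5 FPKM in Sham (SD, n = 4 each) and rose by 1.38 ± 0.22 (adjusted p = 5.79e-05). Atp5g2 averaged 418 ± 96.9 FPKM in MCAO and 424 ± 87.2 FPKM in Sham, and its groups overlapped. So 2 of the 3 genes for subunit c rose.

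Atp5g3 made up 47.9 ± 1.94% of subunit c FPKM in MCAO and 14.2 ± 4.04% in Sham, with no overlap. With exosomes the share was 29.0 ± 11.4% in MCAO+AS-exos and 38.3 ± 5.34% in MCAO+Ctrl-exos. The exact two-sided permutation p of MCAO against Sham was 0.0286, the smallest that 4 against 4 allows, and 0.114 after adjustment over 8 share comparisons. So none of the 8 passed. The shares tested were those of Atp5g3 and Cox7a1, the members with the largest fold changes after MCAO in these same libraries. With that smallest p, a few differing comparisons cannot pass an adjustment over 8, so the test cannot decide on the shares.

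Most of the F1 head and stalk genes named here rose as well. Atp5b, the catalytic beta subunit, had 370.0, 285, 359 and 227 FPKM in MCAO, against 69.3, 172, 97.9 and 101.23 FPKM in Sham (1.54 ± 0.28, adjusted p = 2.07e-04). The alpha subunit gene Atp5a1 rose by 1.32 ± 0.21 (adjusted p = 4.51e-05). The central stalk genes Atp5d and Atp5e rose by 1.99 ± 0.30 and 1.59 ± 0.24. The third gene of that stalk, Atp5c1, averaged 336 ± 26.9 FPKM in MCAO and 321 ± 47.3 FPKM in Sham and did not pass. Atp5mpl, a small membrane subunit, averaged 1837 ± 406 FPKM in MCAO and 594 ± 120.0 FPKM in Sham (1.63 ± 0.23, adjusted p = 1.44e-05). Atpif1, the inhibitor of ATP hydrolysis, whose symbol lies outside the rule, did not pass (0.37 ± 0.23).

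Promoters are printed for Atp5g3 and Cox7a1, which had the largest fold changes after MCAO, and for Uqcr11, which passed in MCAO+Ctrl-exos against MCAO and in MCAO+AS-exos against MCAO+Ctrl-exos below. Each is 300 bases around the annotated start, 5′ to 3′ on the gene's strand, from RefSeq on GRCm38.p6, a build other than the one the submitters' notes name. Capitals mark a match to a searched motif on either strand: in Atp5g3 the motif of ERRα (TCAAGGTCA) and that of NRF1, the last 10 capitals, and in Uqcr11 that of ETS factors (CCGGAAGT).
Atp5g3, chr2:73911277-73911576, minus strand: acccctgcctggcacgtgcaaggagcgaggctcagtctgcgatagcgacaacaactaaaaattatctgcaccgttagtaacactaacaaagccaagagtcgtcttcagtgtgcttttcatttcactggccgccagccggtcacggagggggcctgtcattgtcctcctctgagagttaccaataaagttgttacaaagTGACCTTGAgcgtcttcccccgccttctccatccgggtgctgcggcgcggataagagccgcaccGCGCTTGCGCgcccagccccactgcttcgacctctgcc
Cox7a1, chr7:30183921-30184220, plus strand: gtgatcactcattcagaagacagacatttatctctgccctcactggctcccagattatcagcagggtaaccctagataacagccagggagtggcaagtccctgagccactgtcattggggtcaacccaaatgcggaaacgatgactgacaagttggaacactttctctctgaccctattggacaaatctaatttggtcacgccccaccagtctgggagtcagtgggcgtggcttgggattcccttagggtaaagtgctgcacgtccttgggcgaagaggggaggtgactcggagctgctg
Uqcr11, chr10:80406772-80407071, minus strand: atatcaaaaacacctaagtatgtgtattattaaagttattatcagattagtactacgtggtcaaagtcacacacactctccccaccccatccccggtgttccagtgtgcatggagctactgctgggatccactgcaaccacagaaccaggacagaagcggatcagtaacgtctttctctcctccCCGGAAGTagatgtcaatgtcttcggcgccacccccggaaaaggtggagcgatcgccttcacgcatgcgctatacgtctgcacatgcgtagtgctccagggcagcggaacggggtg

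Of the 81 members, 67 had a promoter in the RefSeq table. The NRF1 letters were found in 17 of them (25.4%), against 12.3% of 8755 promoters of tested genes and 5.19% of all 27025. They were present in 6 of 15 promoters of complex V, 7 of 33 of complex I, 2 of 3 of complex II, 1 of 5 of complex III and 1 of 11 of complex IV. The ERRα letters were in 2 members (Atp5g3 and Sdhd), the 10 letters of the YY1 motif in 5 and the ETS letters in 5. Of the members' promoters these are 2.99%, 7.46% and 7.46%, and of the tested genes' promoters 0.320%, 2.64% and 9.96%. In Atp5g3 the matched stretches do not overlap. Such matches are letters in a window and show no binding.

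Complex IV held the largest single change. Cox7a1, the paralog of Cox7a2 known from heart and skeletal muscle, was at 41.1, 19.4, 30.5 and 38.0 FPKM in MCAO libraries. In Sham it was listed at 0 in 3 libraries and at 0.240 FPKM in replicate 2. Its fold change of 4.93 ± 0.47 (adjusted p = 7.69e-08) depends on the pseudocount and ranged between 4.33 and 7.84 over the alternatives. Cox7a1 passed the filter on low values through the 3 occluded groups alone. It remained a minor form: its share of Cox7a1 plus Cox7a2 was 6.08 ± 2.25% in MCAO and 0.0142 ± 0.0283% in Sham. Cox7a2 itself averaged 512 ± 115 FPKM in MCAO and 441 ± 128 FPKM in Sham and did not pass.

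Cox5a and Cox5b, matrix-side subunits found in every form of the enzyme, rose together. Cox5a had 799, 762, 922 and 1026 FPKM in MCAO, against 77.3, 232, 131 and 223 FPKM in Sham (2.52 ± 0.29, adjusted p = 8.37e-07). Cox5b averaged 836 ± 38.6 FPKM in MCAO and 262 ± 78.9 FPKM in Sham (1.73 ± 0.23, adjusted p = 4.75e-06). Neither pair of groups overlapped. The paralogs Cox4i1, Cox6a1, Cox6b1 and Cox8a, which are broadly expressed, rose by 1.22, 1.22, 0.99 and 0.75. Cox6b2 had 2.83, 12.8, 6.00 and 1.02 FPKM in MCAO and was listed at 0 in 3 Sham libraries and at 4.76 FPKM in the fourth. Its groups overlapped, and its call (adjusted p = 0.0267) was lost in 12 of 30 alternatives. Cox7a2l, which takes part in supercomplexes, did not pass (-0.17 ± 0.24), nor did Cox6a2 (1.28 ± 0.81).

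Complex I was split. Ndufc1 and Ndufb6, accessory subunits of the membrane arm, rose by 1.88 ± 0.22 and 1.68 ± 0.24 (adjusted p = 1.30e-06 and 1.73e-05). Ndufb7 (adjusted p = 2.27e-04) and Ndufa1 (1.35 ± 0.22) rose too. Ndufc1 had 435, 451, 524 and 453 FPKM in MCAO, against 126, 153, 110.1 and 117 FPKM in Sham. Ndufs8 had 118, 217, 234 and 227 FPKM in MCAO, against 252, 371, 241 and 318 FPKM in Sham, so its groups did not overlap, but it did not pass (-0.59 ± 0.26, adjusted p = 0.0760). Ndufa4, which the symbol places in complex I although it is now counted with complex IV, averaged 794 ± 109 FPKM in MCAO and 729 ± 185 FPKM in Sham and did not pass.

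Complexes II and III had the smallest medians, and both these and their shares of risen genes, 25.0% each, were near those of all genes (0.25 and 24.5%). Sdhc, a membrane anchor of succinate dehydrogenase, had 170, 174, 210 and 122 FPKM in MCAO, against 70.3, 132, 78.6 and 72.8 FPKM in Sham (0.95 ± 0.30, adjusted p = 0.0167). Sham replicate 2 was the high library of its group and overlapped MCAO. The flavoprotein gene Sdha (0.37 ± 0.24), the iron-sulfur gene Sdhb (0.19 ± 0.24) and the anchor gene Sdhd (-0.09 ± 0.22) did not pass. In complex III the small subunit genes Uqcrq (1.18) and Uqcr10 (0.66 ± 0.22, adjusted p = 0.0219) rose. The abundant Uqcrb averaged 1127 ± 226 FPKM in MCAO and 965 ± 356 FPKM in Sham, and neither it nor Uqcrh, at 851 ± 146 FPKM in MCAO and 721 ± 194 FPKM in Sham, passed.

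Setting MCAO+Ctrl-exos against MCAO compares occlusion with injected exosomes and occlusion alone. No group was injected without exosomes, so injection and exosomes cannot be told apart. A single member passed. Uqcr11, a small subunit of complex III near its iron-sulfur protein, had 1011, 1676, 1347 and 1823 FPKM in MCAO+Ctrl-exos, against 505, 563, 547 and 621 FPKM in MCAO (1.36 ± 0.20, limma adjusted p = 0.00625). All 4 MCAO+Ctrl-exos libraries lay above all 4 MCAO libraries, with replicate 1 the lowest. Of all genes 0.0461% rose and 0.0277% fell. The call was lost in a fit of only the 8 libraries compared, without limma's trend and robust settings, and without MCAO+Ctrl-exos replicate 4.

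Many other members were higher without passing. The median log2 fold change was 0.44 over the members and -0.14 over all genes, and 28 members had an unadjusted p below 0.05, 27 higher and 1 lower, where 4.51% of all genes were higher and 6.38% lower. The gap between both medians, 0.58, was 0.54 with equal library totals and 0.26 with quantile normalization. The medians were 0.53 for complex I, 0.45 for complex III, 0.45 for complex IV, 0.31 for complex V and 0.09 for complex II. Groups did not overlap for 7 members, all higher, where 1.99% of all genes were higher and 3.99% lower in that way. Ndufb9 of complex I averaged 727 ± 138 FPKM in MCAO+Ctrl-exos and 443 ± 66.4 FPKM in MCAO (0.71 ± 0.18, adjusted p = 0.174). MCAO+Ctrl-exos replicate 1 stood apart: its members lay at a median of 0.04 log2 against their mean over all libraries, and those of replicates 2 to 4 at 0.56 to 0.76. Its monocyte markers summed to 9576 FPKM, against 16189 to 20332 FPKM in the other 3, and their part in the result was not tested. Without it 6 members rose, where 0.655% of all genes did.

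Whether the exosome source mattered is addressed by MCAO+AS-exos against MCAO+Ctrl-exos. Of the 81 members 2 passed, both lower and both short transcripts. Uqcr11 had 576, 728, 511 and 800.1 FPKM in MCAO+AS-exos, against 1011, 1676, 1347 and 1823 FPKM in MCAO+Ctrl-exos (-1.15 ± 0.20, adjusted p = 0.0236). Ndufa1, an accessory subunit needed to build the membrane arm of complex I, had 749, 669, 592 and 1115 FPKM in MCAO+AS-exos, against 1170.5, 1969.8, 1491 and 1735 FPKM in MCAO+Ctrl-exos (-1.04 ± 0.22, adjusted p = 0.0441). Neither pair overlapped, and the highest MCAO+AS-exos value was that of replicate 4 in both. These 2 members fell and 0 rose, where 0.129% of all genes fell and 0.157% rose. At an unadjusted p below 0.05 there were 33 members lower and 6 higher, where 12.0% of all genes were lower and 7.62% higher. Leaving out any of MCAO+AS-exos replicates 1 to 3 or MCAO+Ctrl-exos replicates 2 and 4 took the count to 0, and leaving out MCAO+Ctrl-exos replicate 1 took it to 9 lower, where 0.452% of all genes were. The same MCAO+Ctrl-exos libraries enter this comparison and the one before it.

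The median was -0.42 over the members and -0.08 over all genes. It was -0.64 for complex III, -0.44 for complex IV, -0.40 for complex I, -0.30 for complex V and 0.55 for complex II. Of the 81 members, 3 were higher without overlap of the groups, a smaller share than the 5.19% of all genes. Another 7 were lower without overlap, a larger share than the 5.02% of all genes. The 3 higher ones were Atp5c1, Sdhd and Uqcrc2. Sdhd, for example, had 237, 239, 240 and 166 FPKM in MCAO+AS-exos, against 115, 135, 101.14 and 164 FPKM in MCAO+Ctrl-exos (0.78 ± 0.22, adjusted p = 0.0802).

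**Figure D3:**
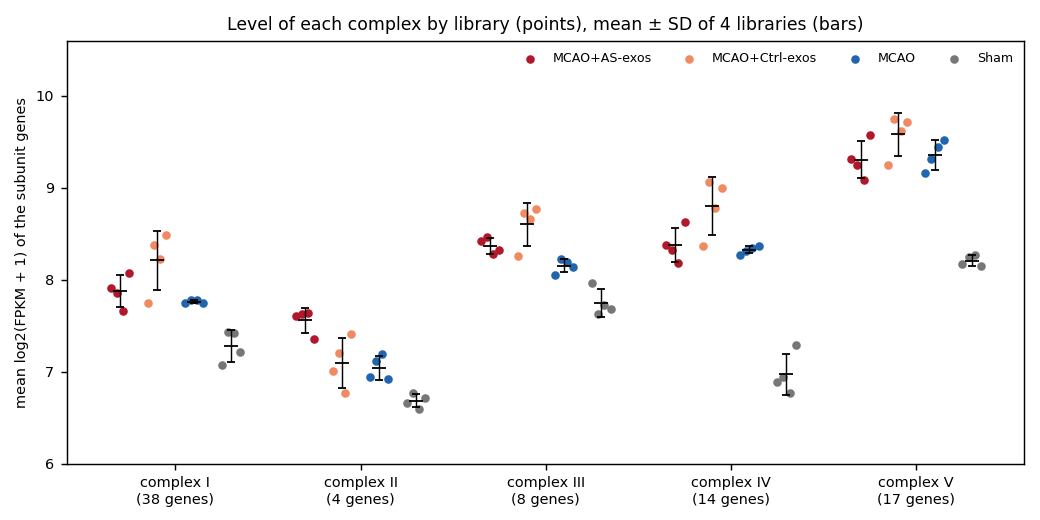
Mean log2(FPKM + 1) over the subunit genes of each complex (vertical axis) in every library (points) with mean ± SD of 4 libraries (bars), for complexes I to V (horizontal axis). All Sham libraries lie below all other libraries in each of the 5 complexes, in complex II by less than 0.01. Complex II has its 3 highest values in MCAO+AS-exos replicates 1 to 3, at 7.61 to 7.64, and 7.36 in replicate 4.

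MCAO+AS-exos replicate 4 stood apart from the other 3 libraries of its group in many members. Its Atp5g3 was at 996 FPKM, against 237 to 329 FPKM in replicates 1 to 3, and its Uqcrc1 at 89.98 FPKM, against 242 to 308 FPKM. Its monocyte markers summed to 10106 FPKM, against 24421 to 26667 FPKM in the others, and its neutrophil markers to 3373 FPKM, against 5876 to 7189 FPKM. In MCAO+Ctrl-exos the neutrophil markers summed to 1733 to 3469 FPKM. With all libraries, 0 of the microglial, monocyte, border macrophage and neutrophil markers passed in an exosome comparison. Without replicate 4, 2 monocyte, 2 neutrophil, 1 border macrophage and 1 microglial marker rose in MCAO+AS-exos against MCAO+Ctrl-exos. In MCAO+AS-exos against MCAO, 2 monocyte, 1 neutrophil and 1 border macrophage marker then rose and 1 monocyte marker fell. What part these had in the results was not tested. Without replicate 4, in MCAO+AS-exos against MCAO+Ctrl-exos, 6 members rose and 20 fell, while 3.52% of all genes rose and 8.44% fell. The 6 were Atp5a1, Atp5b, Atp5c1, Ndufa10, Sdhd and Uqcrc2, and among the 20 were Atp5g3 (-1.24), Atp5k (-1.27), Ndufa3 (-1.18) and Cox7c (-1.11). Uqcr11 and Ndufa1 were among the 20. By the transcript length described below, the 6 were 1166 to 2471 bases long (median 1906). The 20 were 362 to 4371 bases long (median 556). The part of length in these calls was not tested.

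The comparison of MCAO+AS-exos with MCAO gave 3 members that rose and 0 that fell, where 1.06% of all genes rose and 5.08% fell. Ndufs8, an iron-sulfur subunit in the electron path of complex I, had 460, 406, 364 and 304 FPKM in MCAO+AS-exos, against 118, 217, 234 and 227 FPKM in MCAO (0.98 ± 0.26, limma adjusted p = 0.0378). Sdhb, the iron-sulfur subunit of complex II, had 519, 474, 435 and 272 FPKM in MCAO+AS-exos, against 254, 222, 250.1 and 210 FPKM in MCAO (0.82 ± 0.24, adjusted p = 0.0467). The groups did not overlap for either gene. Uqcrc1, a core protein of complex III, had 242, 308, 272 and 89.98 FPKM in MCAO+AS-exos, against 106, 91.4, 50.0 and 64.2 FPKM in MCAO (1.46 ± 0.42, adjusted p = 0.0482). Replicate 4 overlapped MCAO there, and in each of the 3 genes it was the lowest of its group.

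Leaving out any 1 of the 4 MCAO libraries or of MCAO+AS-exos replicates 1 to 3 took the count to 0. Groups did not overlap for 6 members, all higher, where 4.29% of all genes were higher and 10.1% lower in that way. The members' median was 0.08 against -0.17 over all genes, and 12 members had an unadjusted p below 0.05, 10 higher and 2 lower, where 6.91% of all genes were higher and 18.8% lower at that level. With quantile normalization the medians were -0.03 over the members and -0.02 over all genes, so the gap was not kept. Without MCAO+AS-exos replicate 4, 9 members rose and 4 fell, while 3.89% of all genes rose and 14.8% fell. Sdhd (0.88) and Atp5c1 (0.62) were among the 9, and the 4 were Atp5g3 (-1.43), Atp5k (-0.68), Atp5l (-0.73) and Cox7c (-0.73). Transcripts of the 9 were 983 to 2020 bases long and those of the 4 were 371 to 714 bases long. The 3 calls were near the threshold, and Sdhd lay just beyond it (adjusted p = 0.0507). This comparison shares libraries with both others on exosomes.

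**Figure D4:**
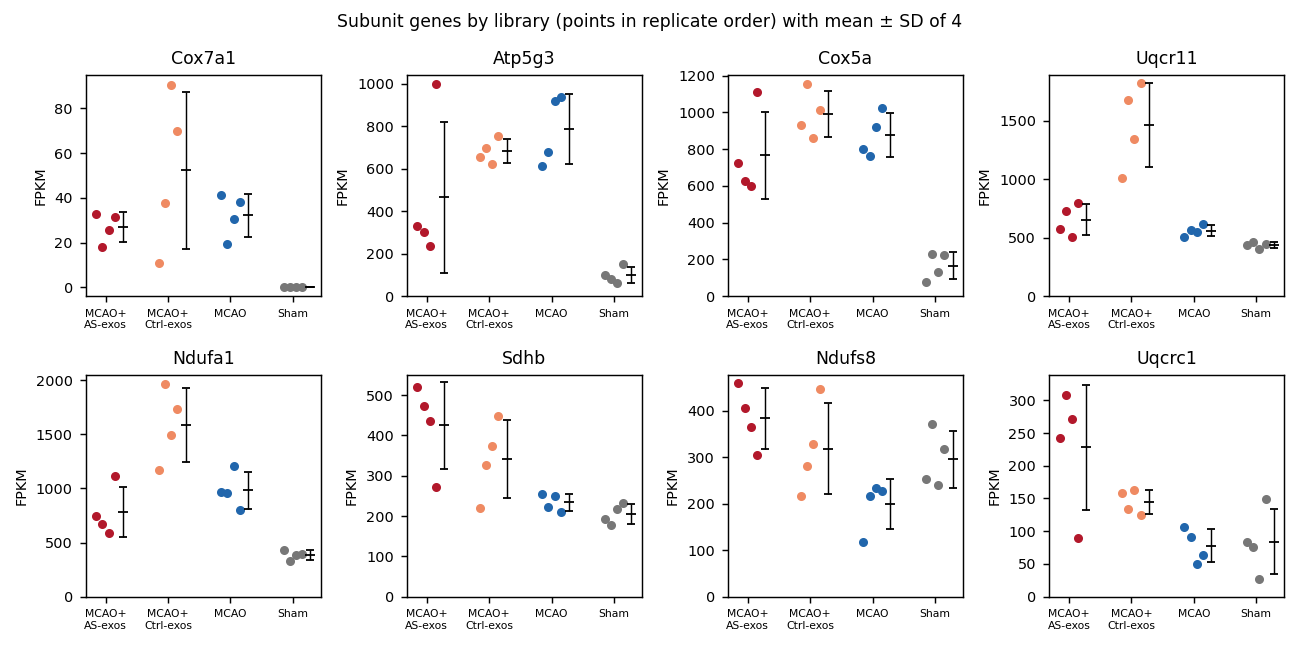
FPKM (vertical axes, each with its own scale) of 8 members in every library (points in replicate order) with mean ± SD of 4 libraries, for MCAO+AS-exos, MCAO+Ctrl-exos, MCAO and Sham (horizontal axes). Cox7a1, Atp5g3 and Cox5a are lowest in Sham, Uqcr11 and Ndufa1 highest in MCAO+Ctrl-exos, and the fourth MCAO+AS-exos point is apart from the other 3 in Atp5g3, Sdhb and Uqcrc1.

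In the exosome comparisons the members' fold changes varied with transcript length. Length was taken from 1 principal coding transcript a gene (GENCODE M21) and was known for 80 members: their median was 764 bases, against 2859 bases over the tested genes, and 51 members were under 1000 bases. In MCAO+AS-exos against MCAO+Ctrl-exos, members under 1000 bases had a median of -0.58 and the 29 longer ones 0.20. All 768 tested genes under 1000 bases had a median of -0.23. With length as the median over coding transcripts, members under 1000 bases had -0.46, longer ones 0.27 and all genes under 1000 bases -0.04. By the principal transcript, all genes in the shortest of 5 equal length classes had a median of 0.09. As descriptions across genes, which are not independent, Spearman's rho of length with fold change was 0.64 among members and -0.28 over all genes. The 2 coefficients cover different ranges, since 66 of the 80 members lay in the shortest of 5 equal length classes of genes, which ends at 1605 bases. Libraries of a group also differed by length. In MCAO+AS-exos replicate 4, genes of the longest class lay at a median of 0.13 log2 against their mean over all libraries. In replicates 1 to 3 they lay at -0.46, -0.54 and -0.53. In MCAO+Ctrl-exos they lay at 0.32 in replicate 1 and at 0.03, -0.04 and -0.07 in replicates 2 to 4.

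In the other comparisons rho was 0.50 among members and -0.43 over all genes for MCAO+AS-exos against MCAO, -0.35 and -0.23 for MCAO+Ctrl-exos against MCAO, and -0.26 and 0.02 for MCAO against Sham. In MCAO+Ctrl-exos against MCAO, members under 1000 bases had a median of 0.47 and all genes of that length 0.36. In MCAO against Sham those values were 0.82 and 0.29. With length taken instead as the median over a gene's coding transcripts, those values were 0.46 and 0.07 after Ctrl-exos and 0.72 and 0.25 after MCAO, so how far short members stood above short genes after Ctrl-exos depended on the definition.

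A smooth trend in length was then removed from each library. For MCAO against Sham 38 members rose and 1, Ndufs8, fell, with 37 of the 40 risen genes kept and a median of 0.54. In the exosome comparisons 0 members passed. The medians became 0.10 for MCAO+Ctrl-exos against MCAO, -0.27 for MCAO+AS-exos against MCAO+Ctrl-exos and -0.18 for MCAO+AS-exos against MCAO. Over all genes they were then -0.12, -0.07 and -0.16 in that order, and 0.25 for MCAO against Sham. So in MCAO+AS-exos against MCAO the members lay near all genes. Uqcr11 then had 0.83 (adjusted p = 0.0614) after Ctrl-exos and -0.67 (adjusted p = 0.0543) for AS-exos against Ctrl-exos. Removing GC content as well called Ndufa2 and Uqcrq down in AS-exos against Ctrl-exos. In AS-exos against MCAO, removing both called Atp5g3, Ndufb6 and Ndufc2 down, where removing length alone called 0 members.

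These losses depended on how length was defined. The first definition tried was that median over coding transcripts. It was replaced by the principal transcript after results under it had been seen, because some medians did not look right for the gene. The principal transcript was long for some members as well, at 4371 bases for Ndufb2 and 4715 bases for Atp5g1. Both count among the longer members, and neither definition was checked against reads. With the median definition, the trend removed, Uqcr11 still rose after Ctrl-exos (1.16, adjusted p = 0.00484) and fell in AS-exos against Ctrl-exos (-0.93, adjusted p = 0.0315), together with Ndufa2. Ndufa1 did not pass (adjusted p = 0.0664). The members' median for Ctrl-exos against MCAO was then 0.26, and that of all genes -0.12. For MCAO against Sham 36 members rose, and for AS-exos against MCAO 0 passed under both definitions.

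**Figure D5:**
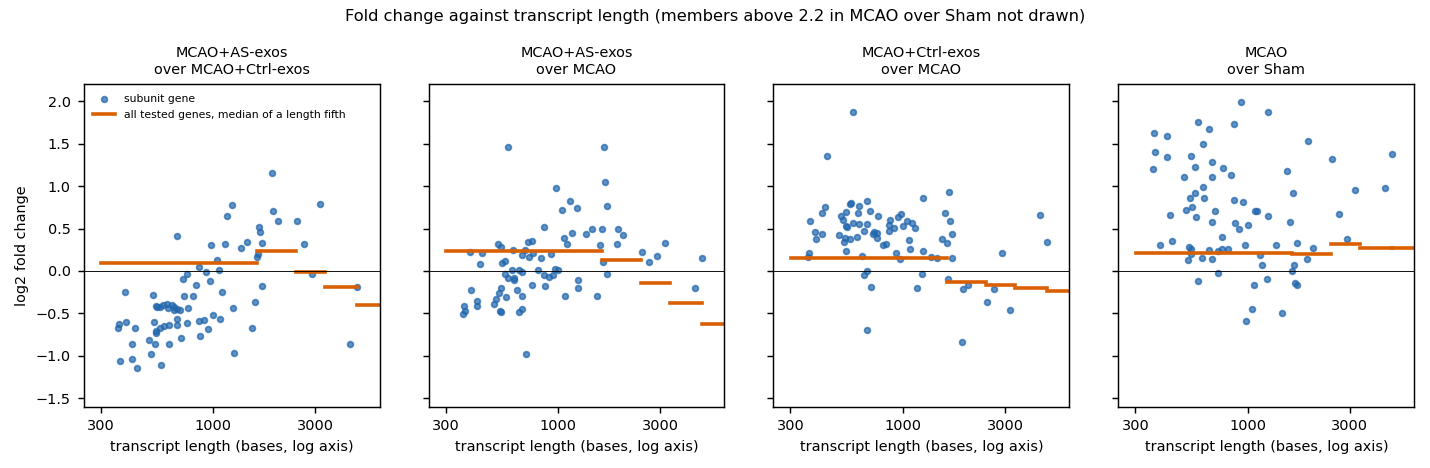
Log2 fold change (vertical axis) against transcript length of the principal transcript (horizontal log axis, bases) for the member genes (points) and the median of all tested genes in each of 5 equal length classes (lines), for 4 comparisons. In MCAO+AS-exos over MCAO+Ctrl-exos the points climb with length (rho 0.64) while the lines of the 3 longest classes step down. Cox7a1, Atp5g3 and Cox5a, above the axis in MCAO over Sham, are not drawn.

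Catalytic and core subunits were set against the others, a split drawn after values had been seen and given as a description. The 22 core genes, of median length 1493 bases, had a median of 0.31 in MCAO+AS-exos against MCAO+Ctrl-exos, and the other 59 had -0.52. With the length trend removed these were 0.08 and -0.40. In MCAO against Sham the 22 had 0.34 and the 59 had 0.71.

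Some assembly factors passed after MCAO, in both directions, where 24.5% of all tested genes rose and 14.8% fell. Of the complex I assembly factors 1 of 16 rose (Ecsit, 1.70 ± 0.52) and 1 fell (Ndufaf7, -2.05 ± 0.44), with a median of -0.75. Among the 4 factors for complex II, Sdhaf1 rose (2.95 ± 0.64) and Sdhaf3 (-3.63 ± 0.74) and Sdhaf4 fell. For complex IV 2 of 25 rose and 1, Higd2a, fell (-1.05 ± 0.26), and for complex III 1 of 5 rose. For complex V Fmc1 rose (1.98 ± 0.60) and Tmem70, which helps build the rotor, fell (-2.40 ± 0.34).

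Around the chain, 6 of 14 genes of the tricarboxylic acid cycle (42.9%) rose after MCAO, where 24.5% of all genes rose and 14.8% fell, among them citrate synthase (Cs, 1.73 ± 0.30) and malate dehydrogenase (Mdh2, 1.26 ± 0.33), and Idh3g fell (-1.96 ± 0.36). Of 11 carriers 4 rose (36.4%), led by the uncoupling protein gene Ucp2 (2.80 ± 0.36) and the phosphate carrier gene Slc25a3 (1.67 ± 0.24). The adenine nucleotide carrier gene Slc25a5 (-1.16 ± 0.18) and the pyruvate carrier gene Mpc1 (-1.29 ± 0.35) fell. Of 11 regulators 0 rose and 3 fell: the corepressor gene Nrip1 (-2.05 ± 0.34), the mitochondrial transcription factor gene Tfam (-1.15 ± 0.32) and Tfb2m (-1.15 ± 0.42). Coq8b was the 1 of 12 genes of coenzyme Q synthesis that rose (1.63 ± 0.44). Of 7 chain subunits and carriers outside the symbol rule, 2 rose (28.6%) and 1 fell, with a median of 0.15.

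In MCAO+AS-exos against MCAO, 1.06% of all genes rose and 5.08% fell. There the cytochrome c1 gene Cyc1, a complex III subunit outside the symbol rule, rose (0.94 ± 0.27, limma adjusted p = 0.0468). So did Idh3g (1.47 ± 0.36), Sdhaf3 (2.53 ± 0.74), the copper chaperone gene Sco2 (3.31 ± 0.95), Coq6 (1.56 ± 0.41) and the porin gene Vdac3 (1.03 ± 0.25), while Yy1 fell (-1.41 ± 0.36). In MCAO+Ctrl-exos against MCAO, 0 genes of these lists passed, where 0.0461% of all genes rose and 0.0277% fell. In MCAO+AS-exos against MCAO+Ctrl-exos 0 passed as well, where 0.157% of all genes rose and 0.129% fell. How the calls on these lists fare under the alternatives is not reported here.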

How the data were processed

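RNA-seq values of 13982 genes in 16 libraries were deposited by the authors as 1 table and 16 single files, which held identical values. The unit was inferred to be FPKM from the tools that the submitters' processing notes name (HISAT2, Bowtie2, RSEM 1.3.1, build GRCm39.p6). The sources used here give neither each tool's role nor the annotation. Library totals were 758283 to 983648, and TPM, another length-corrected unit, of a subset of genes is also possible. The authors' deposited FPKM hold no counts, so no counting error could be computed. Raw reads were not used here. Some genes enter the counts and are not reported here by themselves.

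Values were taken as log2(FPKM + 1), and the 10846 genes at 1 FPKM or more in at least 4 libraries were tested, 3136 others not. One limma 3.58.1 model of 4 group means over 16 libraries (R 4.3.3; eBayes with trend and robust) gave each contrast by a two-sided test, and p-values were adjusted by Benjamini-Hochberg across all tested genes, with calls at 0.05. The paralog shares were tested by exact permutation (scipy 1.17.1). The procedure was tested on simulated data. Transcript length and GC content came from GENCODE M21 (GRCm38), by symbol or a RefSeq synonym (125 genes), for 10705 tested genes. A spline in log2 length was fitted to each library's deviations and subtracted. Length was first the median over coding transcripts and was changed to the principal transcript after results had been seen, so both are reported.

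The members and lists were chosen with earlier results of these data known. Named members are, by comparison and direction, the 12 called with the largest fold change, the 3 with the smallest p, the 2 most abundant of each complex, the Sdh genes and paralog sets. Up to 3 genes of each list with the smallest p are named. Other members named were chosen after their values were seen. Alternatives were a replicate block, a pseudocount of 0.1, a filter at 5 FPKM or none, quantile normalization, removal of trends in length and GC content, a fit of 8 libraries, limma without trend and robust, and each library left out. Added after the data were seen were the removal of 2 libraries at once (MCAO+Ctrl-exos 1 and MCAO+AS-exos 4), equal totals, a length trend fitted without the members, and the median length definition.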

Additional observations from a re-analysis of the deposited data

Results flagged for a closer look

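In 172 groups of 4 values (named members and complex means), 12 held a library far from the other 3, by the ratio of its gap to the group's range (Dixon's test at the 95% level). Chance alone flags about 1 group in 20. Of these, 4 were in MCAO+AS-exos replicate 4: Atp5g3 at 995.51 FPKM (others 237 to 329), Ndufa3 at 1308.19 FPKM (others 717 to 817), Sdhd at 165.83 FPKM (others 237 to 240) and the mean log2 level of complex II at 7.36 (others 7.61 to 7.64). In MCAO replicate 1, Ndufa4 stood low at 631.78 FPKM (others 834 to 864), Ndufs8 at 118.16 FPKM (others 217 to 234) and Uqcrb at 790.88 FPKM (others 1204 to 1278). Atp5mpl stood high in MCAO replicate 3 at 2444 FPKM (others 1598 to 1665), and Atp5d in MCAO+Ctrl-exos replicate 3 at 344.29 FPKM (others 269 to 279). In Sham, Sdhc stood high in replicate 2 at 131.87 FPKM (others 70.3 to 78.6). Cox7a1 was at 0.24 FPKM in Sham replicate 2 and Cox6b2 at 4.76 FPKM in Sham replicate 4, with the other 3 libraries listed at 0.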

How the results depend on the processing

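The count for MCAO against Sham held within 1.5 times under every alternative run, with leave-one-out counts of 34 to 43 (medians 0.59 to 0.72) and a replicate block count of 41. Its median fell to 0.35 with quantile normalization. The exosome counts rest on few libraries and settings. Leaving out 1 library at a time gave 0 to 6 calls (medians 0.34 to 0.60) for MCAO+Ctrl-exos against MCAO, 0 to 26 (-0.58 to -0.32) for MCAO+AS-exos against MCAO+Ctrl-exos and 0 to 13 (-0.04 to 0.13) for MCAO+AS-exos against MCAO. Without MCAO+AS-exos 4 and MCAO+Ctrl-exos 1 together the counts were 14, 41 (5 up, 36 down; median -0.71) and 19 (10 up, 9 down). The share of all genes called in that setting is not given here, nor for the other alternatives except where stated. Such counts cannot be set against all genes and are not read as results about the members.

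For MCAO+AS-exos against MCAO+Ctrl-exos, where 2 were called, the count was 5 with quantile normalization and with a minimum of 5 FPKM, 1 with no filter and with a pseudocount of 0.1, and 4 with the replicate block. It was 0 with the length trend removed, fitted with or without the members. For MCAO+AS-exos against MCAO, where 3 were called, it was 1 with the replicate block, 0 with quantile normalization, 0 with the length trend removed under either definition, 0 with median length and GC removed, 3 (all down) with length and GC removed, 1 (down) with the trend fitted without the members and 2 (1 up, 1 down) with equal totals. Its median of 0.08 became -0.18, -0.17, -0.20 and -0.094 with length, with length and GC, with the trend of other genes and with median length removed. The median of all genes there was -0.16 with length and -0.15 with median length removed. For MCAO+Ctrl-exos against MCAO, where 1 was called, the count was 0 with each removal by principal transcript, and 1 with both by median length. Its median of 0.44 became 0.10, 0.11, 0.11 and 0.26 under those 4 removals, 0.23 with quantile normalization and 0.23 with equal totals. In the 3 exosome comparisons 0 members were called in fits of 8 libraries and in limma without trend and robust. Causes were not tested.

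Equal replicate numbers carried no pairing (residual correlations -0.15 to 0.09), and no paired reading is given. Among values of named members under the alternatives, 511 stayed on their side of the threshold, 107 no longer passed and 12 newly passed, and 0 changed sign. Depth is unknown, so small differences in low genes such as Cox6a2 and Cox6b2 cannot be weighed against counting error.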
